A study of Bos taurus with 42 samples.

Results

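The sequences described here are mismatched forms of bovine miRNAs: small RNA reads that differ by 1 base from an annotated miRNA and that the authors' annotation names by that difference. A name such as miR-10a-5p(12T->A) means that the read has A at base 12, where the annotated miR-10a-5p has T. Members were all listed sequences whose first annotation hit was a bovine miRNA and whose name held such a difference. They numbered 240 of 12345 listed sequences, beside 379 bovine miRNA sequences without a mismatch. In 228 the first hit itself was mismatched, and in 12 the first hit was exact and a later hit was mismatched. An exact sequence of the same miRNA was listed for 178 of the 228, and these 178 are called pairs below. The other 50 had no exact partner in the table.

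Mature miRNAs are short RNAs that guide Argonaute proteins to target transcripts, chiefly through the seed near their 5′ end. Their ends are not fixed. Terminal nucleotidyltransferases add untemplated adenines or uridines to the 3′ end, and adenine tailing of miRNAs is well known in oocytes and early embryos. Adenosine deaminases acting on RNA convert adenosine to inosine, which a sequencer reads as G, and editing within the seed of miR-376 family members is a known case. Many miRNAs also belong to families whose members differ by a single base, so that a mismatch to one member can be the annotated base of another.

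Small RNA from cattle was sequenced in 42 libraries. Metaphase II oocytes (3 libraries) were matured in vitro. Ear fibroblasts (3 libraries) were a primary culture from 1 bull of a Brahma and Spanish cross. Embryos made by in vitro fertilisation (IVF) used semen of a Holstein bull, and embryos made by somatic cell nuclear transfer (NT, cloning) used serum-starved fibroblasts of the cross-bred bull, so that the nuclear genotype differs between IVF and NT throughout. Embryos of both kinds were grown over bovine cumulus cells and pooled by 20. On day 2 there were 4 IVF and 4 NT libraries of 2-cell embryos, on day 3 there were 3 and 4 of 8-cell embryos, on day 6 there were 4 and 3 of morulae, and on day 8 there were 3 and 4 of blastocysts. Outgrowths that blastocysts gave in culture (derived cells) made up 4 IVF and 3 NT libraries. The labels state pools but not whether these came from separate collections, so p-values measure only the spread between these libraries.

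Reads of bovine miRNAs ranged from 796 to 2482312 per library (median 35500.5), and 14 libraries had fewer than 20000. Every one of the 12345 listed sequences had reads in NT 2-cell replicate 4. All 240 members were therefore found there, against 14 to 175 in the other libraries, and sequences without reads in that library are not in the list. IVF morula replicates 1 and 3 stood apart: piRNAs, abundant in bovine oocytes and early embryos, held 0.143% and 14.7% of their listed reads, against 80.5% and 74.4% in replicates 2 and 4, and replicate 3 had only 796 miRNA reads. piRNAs held 88.1% to 91.5% of reads in oocytes and at most 0.895% in fibroblasts. Exact miRNAs known from epithelium and trophectoderm held at most 0.00137% of miRNA reads in fibroblasts, from 0.00256% (replicate 2) to 1.89% in IVF derived cells and from 0.831% to 1.90% in NT derived cells (3 of the 6 listed had a sequence; miR-200a, miR-200b and miR-429 had none without a mismatch). Those known from fibroblasts and mesenchyme held 1.28% to 9.94% in fibroblasts, 3.05% to 10.0% in IVF derived cells, 2.76% to 4.36% in NT derived cells and at most 0.450% in blastocysts. Neither set was confined to these groups. In oocytes the epithelial set held 1.57% to 2.44% and the mesenchymal set 1.23% to 1.82%. The epithelial set held up to 2.69% in NT 8-cell embryos and the mesenchymal set up to 2.34% in NT 2-cell embryos. miRNAs known from cumulus and granulosa cells held 7.81% to 14.7% in oocytes, 4.44% to 33.1% in IVF and 4.40% to 20.2% in NT 2-cell embryos, 13.3% to 26.2% in IVF and 4.80% to 25.9% in NT 8-cell embryos, 5.78% to 14.1% in morulae, 3.11% to 10.8% in blastocysts, 11.3% to 23.8% in derived cells and 0.667% to 23.9% in fibroblasts. Those known from blood held at most 0.876%, and those known from early embryos (2 of 6 with a sequence) 0.407% to 0.764% in blastocysts and at most 0.0448% in derived cells. The part of these differences in the results below was not tested. In mixed pools, fewer cells of a type and less RNA per cell cannot be told apart.

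Among the listed sequences, adenine was the base read in most mismatches from base 20 on, and in a minority before it. The list holds only sequences with reads in NT 2-cell replicate 4. Of the 50 forms with A from base 20, 20 were found in no other 2-cell library. The mismatch lay at base 1 in 14 sequences, in the seed (bases 2 to 8) in 48, at bases 9 to 19 in 94 and at base 20 or later in 72. From base 20 on, 50 of 72 mismatches (69.4%) read A and 12 read T. Before base 20, 32 of 156 (20.5%) read A. There the commonest changes were A to G (35 sequences), T to C (33) and C to T (26). The annotated base under the late adenines was T in 19 names, G in 16 and C in 14, and 1 name gave none. Thus late bases read mainly as A, and transitions led before base 20. Names give no sequence, so positions are as the names write them. Of 36 positions named in more than 1 entry, 34 had a single annotated base and 2 had different ones, miR-17-5p base 1 and miR-1246-5p base 3.

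**Figure D1:**
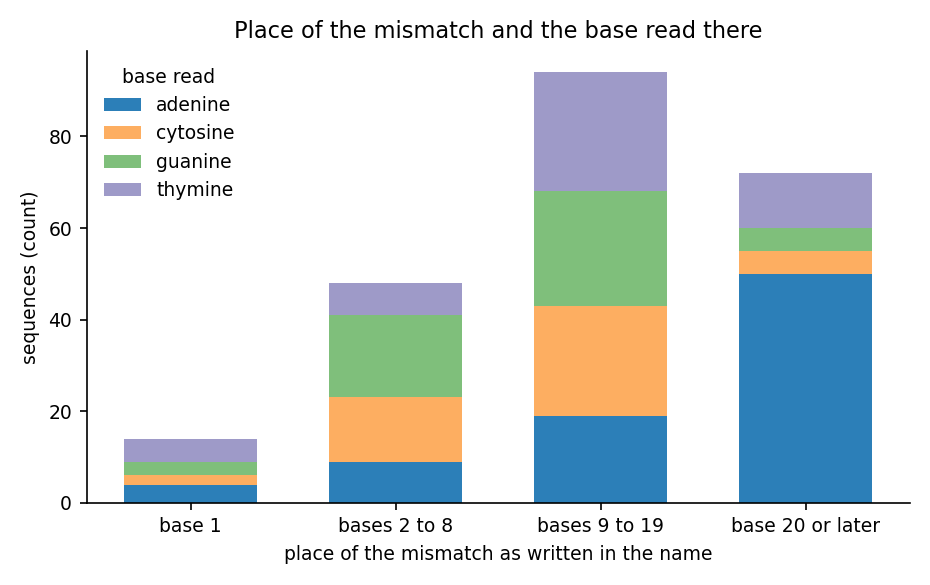
Number of sequences by place of the mismatch (horizontal axis), stacked by the base read there (colours), for the 228 sequences whose first hit is mismatched. Adenine makes up 50 of the 72 mismatches from base 20 on and 32 of the 156 before it. All sequences counted have reads in NT 2-cell replicate 4.

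Most mismatched reads carried the base of a sister miRNA. In 24 sequences the base read was one recorded for another bovine miRNA by a name that lists both miRNAs. A sister's base that no such name records is counted among the other kinds, so this number can be too low. These 24 held 70.2% of the 1138462 mismatched reads. Sequences with A from base 20 held 1.02%, the 10 with T from base 20 and no sister's base held 0.787% (1.47% for all 12 with T from base 20), other A to G changes 4.25%, and other changes before base 20 held 21.5%. The 10 most abundant sequences together held 70.8%, and 8 of these 10 were of the sister kind. Of the 240, 120 had fewer than 100 reads over all libraries, and 6 were found in every library.

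Pairs also differed by kind in how the mismatched form compared with its exact sequence. Over all libraries, the median mismatched form had 56.3% as many reads as its exact sequence where it carried a sister's base (19 pairs). The median was 0.619% for A from base 20 (50 pairs), 0.41% for T from base 20 (10 pairs), 0.695% for other A to G changes (25 pairs) and 0.414% for other changes before base 20 (65 pairs). In all, 104 of 178 mismatched forms had under 1% of the reads of the exact form, and 16 had more reads than it.

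The most abundant member was miR-19a-3p(11T->C), with the base of miR-19b-3p, its partner in the miR-17 polycistron, which promotes cell proliferation. It had 249722 reads against 79189 of exact miR-19a-3p and 33074 of exact miR-19b-3p. It exceeded its exact sequence in all 42 libraries. miR-23b-3p(19A->T), with the base of miR-23a-3p, had 128055 reads against 227433 of its exact sequence. miR-34b-5p(11A->G), with the base of miR-34c-5p, had 89939 reads against 143552; both miR-34 members are known targets of p53. miR-16a-5p(21T->C), with the base of miR-16b-5p, was close to parity with 66178 against 63243 reads.

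For some annotated miRNAs the exact form was the rarer one. miR-30f-5p(9C->T), with the base of miR-30b-5p, had 67656 reads against 39 of exact miR-30f-5p, and exceeded it in 41 of 42 libraries. miR-1260b-5p(9A->G) had 25485 reads and miR-1260b-5p(8A->G) had 3114, against 123 exact reads, and both exceeded the exact form in all 42 libraries. let-7c-5p(17A->G), with the base of let-7b-5p, had 36191 reads against 4112. miR-378d-3p(1T->A) had 25225 reads against 3142, and miR-28-5p(3A->G), a seed change, had 2637 against 1020. In all, 14 members exceeded their exact sequence in at least 21 libraries. The others were both miR-10a-5p forms, miR-19a-3p(11T->C), let-7c-5p(19G->A), let-7a-2-5p(9T->G), miR-26b-5p(11T->C), miR-193a-3p(9T->C) and miR-100-5p(16A->T), the last with 14663 reads against 4141.

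The mismatched share of miRNA reads was highest in oocytes and early embryos. It was 16.7%, 17.2% and 20.7% in the 3 oocyte libraries. In IVF 2-cell embryos it was 22.2%, 19.4%, 10.1% and 17.3%, and in NT 2-cell embryos 22.2%, 22.2%, 15.2% and 20.0%. It lay between 12.8% and 16.1% in IVF 8-cell embryos, between 12.5% and 20.6% in NT 8-cell embryos and between 12.9% and 14.6% in NT morulae. Blastocysts ranged from 11.2% to 12.7% and derived cells from 8.08% to 10.4%, and these ranges did not overlap. Fibroblasts varied widely, with 15.9%, 12.98% and 8.27%. The highest share of all, 27.6% (95% Wilson interval 24.6% to 30.8%, counting error only), was in the shallow IVF morula replicate 3. Forms with a sister's base averaged 14.4% of miRNA reads in oocytes. They averaged 8.54% and 7.93% in IVF and NT blastocysts, and 6.24% and 5.72% in IVF and NT derived cells. In each of these groups they were most of the mismatched share. Of the 2224, 2103 and 1911 mismatched reads in oocytes, a large part was miR-10a-5p(12T->A), with reads given below. The mismatched share is therefore no rate of mismatch per miRNA. Because the list depends on 1 NT 2-cell library, these shares are a description and were not tested.

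**Figure D2:**
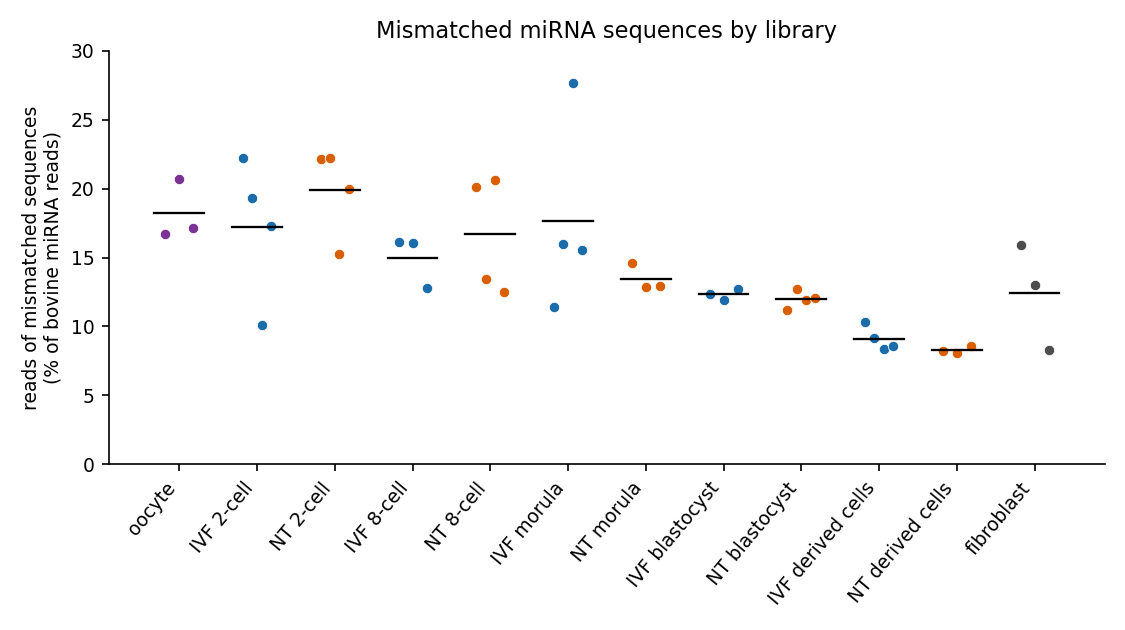
Reads of the 240 mismatched sequences as a percentage of all bovine miRNA reads (vertical axis) in each library (points), with group means (black lines). Oocytes and 2-cell embryos lie between 10.1% and 22.2%, blastocysts between 11.2% and 12.7% and derived cells between 8.08% and 10.4%.

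The share of mismatched reads within a pair does not depend on scaling between libraries, and it was compared between the 7 blastocyst and 7 derived-cell libraries. Of 106 member pairs with at least 20 reads in every one of these libraries, 23 passed a two-sided exact permutation test at an adjusted p of 0.05. The background was 22.9% of the 109 pairs tested in the whole table, nearly all of them members, so it gives little contrast. The share was higher in derived cells in 18 pairs and higher in blastocysts in 5. In 14 of the 106 member pairs the shares of the 2 groups did not overlap. Among the 3 other pairs tested, pal-mir-9226-5p(4A->G) and pal-mir-9226-5p(4A->T) did not overlap either, so this was not particular to members. The smallest p that the 3432 possible splits allow is 0.000583, which is 0.00397 after adjustment over the 109 pairs, and every pair described below without a p of its own reached it. Depth limits many of these calls. In 9 of the 23, no mismatched read was seen in any blastocyst library, and in 7 of these 9 fewer than 3 reads were to be expected even in the deepest blastocyst library at the share of derived cells. Only where at least 3 mismatched reads were to be expected in each library at the higher mean are differences named below. This left 13 of the 23, with 8 higher in derived cells and 5 in blastocysts.

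In miR-30e-5p, of a family with broad roles in differentiation, the form miR-30e-5p(13T->C) took 4.50% to 9.13% of the pair in blastocysts (median 5.31%) and 26.5% to 54.9% in derived cells (median 46.6%). The means were 6.01% ± 1.57 and 45.1% ± 9.03 (SD, n = 7 each). No name that lists miR-30e-5p beside another miRNA records C at base 13. No sequence was used to look for such a sister, so this form may be another member of the family, and its share a ratio of 2 miRNAs. Blastocysts were the low point of development for this form. Its share was 41.3% to 51.8% in oocytes, 46.9% to 68.0% in 2-cell embryos, 39.5% to 59.3% in 8-cell embryos, and 18.1%, 22.3% and 27.4% in NT morulae. In IVF morulae it was 44.9%, 29.0% and 19.9% in replicates 1, 2 and 4, and replicate 3 had no read of the pair. Fibroblasts stood at 39.3%, 44.1% and 21.4%. IVF and NT blastocysts were both low, at 4.50% to 9.13% in NT and 5.05% to 6.85% in IVF.

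miR-23b-3p(19A->T) and the miR-27b-3p forms moved the same way; miR-23 and miR-27 genes sit together in paired clusters. miR-23b-3p(19A->T) took 7.18% to 16.2% in blastocysts (median 9.53%) and 33.3% to 40.8% in derived cells (median 37.4%). The sequence miR-27b-3p(19T->C)/miR-27a-3p, which also matches miR-27a-3p exactly, took 0% to 9.23% (median 1.67%) and 10.6% to 29.6% (median 16.8%). Its variant miR-27b-3p(19T->C)/miR-27a-3p(22C->A) took 0% to 1.34% and 2.79% to 15.8%. let-7a-2-5p(9T->G), with the base of let-7e-5p, took 33.3% to 67.6% in blastocysts (median 49.1%) and 68.4% to 88.1% in derived cells (median 74.5%); let-7 miRNAs are known to accumulate as cells differentiate. Each of these 4 forms was higher in every derived-cell library than in any blastocyst library. Smaller rises with overlapping ranges were seen for miR-19b-2-3p(19A->C), 15.0% ± 4.81 against 24.9% ± 3.55 (exact permutation test, adjusted p = 0.00747), miR-19a-3p(11T->C), 68.2% ± 4.03 against 76.0% ± 4.42 (adjusted p = 0.0201), and miR-19a-3p(19A->C), 1.82% ± 0.532 against 2.97% ± 0.77 (adjusted p = 0.0318), all SD with n = 7 each. The last of these lost its call when any 1 of 6 libraries was left out.

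The miR-10a-5p forms went the other way. miR-10a-5p(12T->A), with the base of miR-10b-5p, made up 99.2% to 100% of the pair in blastocysts. In derived cells it made up 25.0% in IVF replicate 2 and 82.1% to 84.5% in the other 6 libraries. Oocytes had 899, 901 and 739 reads of this form and 2, 0 and 0 reads of exact miR-10a-5p, so exact miR-10a-5p was near absent there. miR-10a-5p(11T->A) took 95.8% to 100% in blastocysts and 4.35% to 57.8% in derived cells. miR-10 genes lie within HOX gene clusters. Both forms share the same exact sequence, and their shares are not independent. miR-17-5p(1C->A) is counted with the sister bases for its match to miR-106-5p, but the names give both A and C as the annotated base 1 of miR-17-5p, so A may be its own base there. It took 0.653% to 2.36% in blastocysts and 0% to 0.533% in derived cells. miR-18a-5p(20A->T) took 0.401% to 1.97% and 0% to 0.374%. In oocytes these 2 forms were far more prominent, at 14.3%, 19.9% and 19.9% for miR-17-5p(1C->A) and 10.4%, 15.6% and 20.2% for miR-18a-5p(20A->T). miR-2478-3p(8T->C) took 13.8% ± 5.15 in blastocysts and 6.997% ± 2.25 in derived cells (SD, n = 7 each; exact permutation test, adjusted p = 0.0432), and this call was lost when any 1 of 11 libraries was left out. Each of the other 21 calls held when any 1 library was left out.

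**Figure D3:**
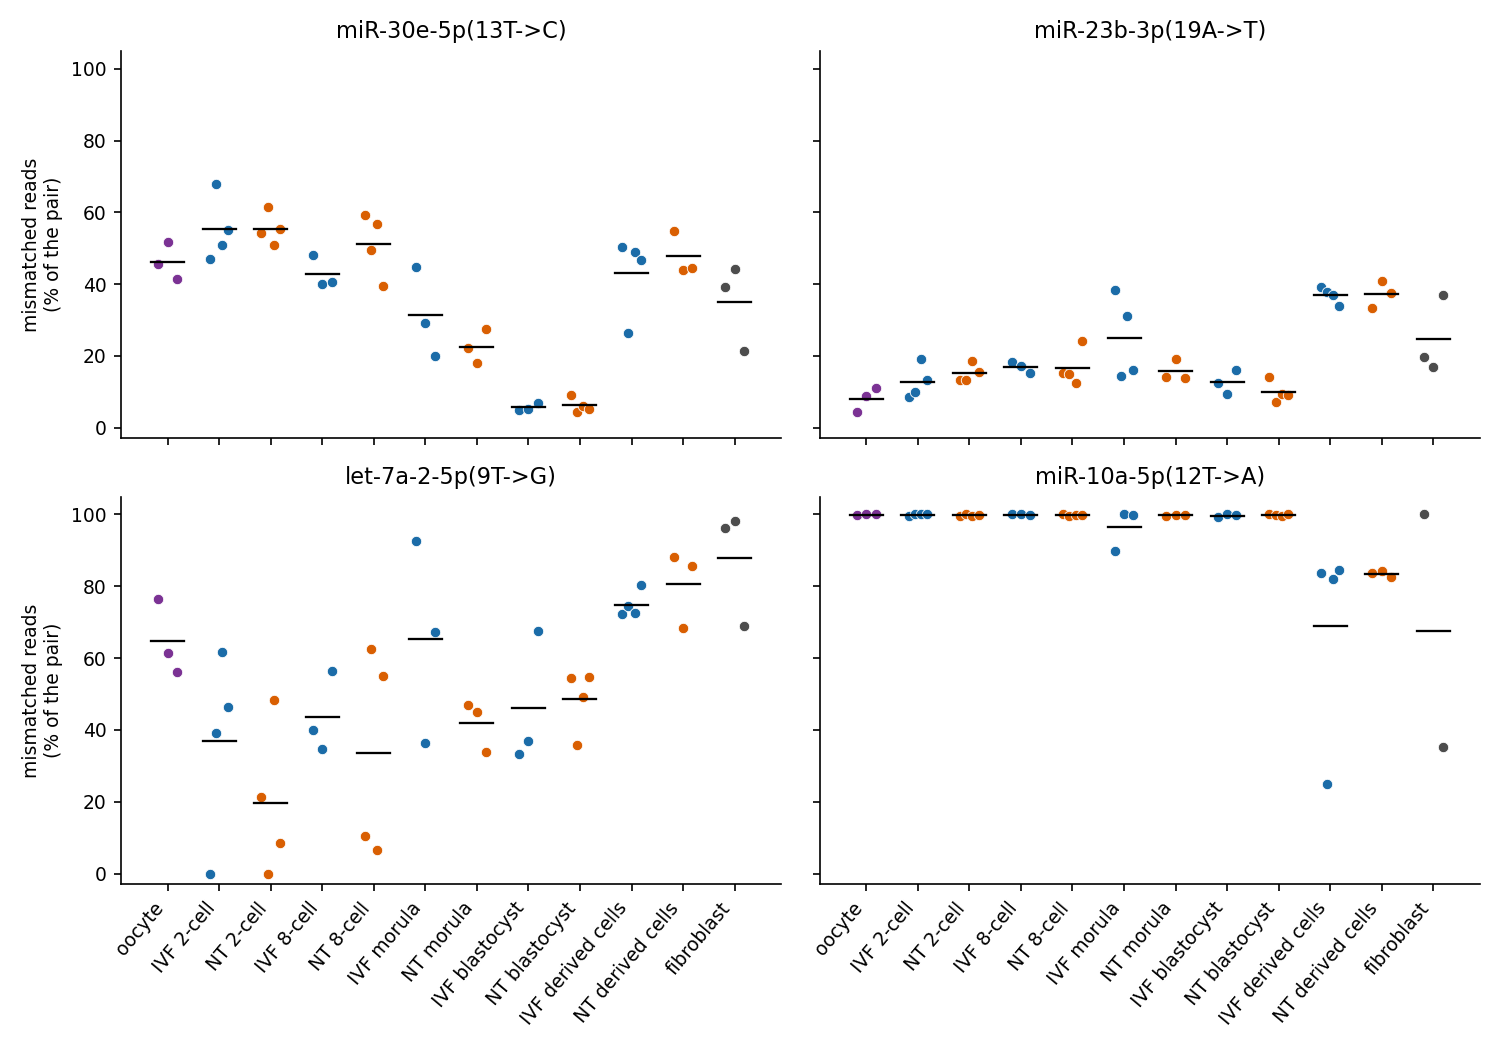
Reads of 4 mismatched forms as a percentage of the reads of the form and its exact sequence (vertical axis) in each library (points), with group means (black lines). miR-30e-5p(13T->C) falls to 4.50% to 9.13% in blastocysts and miR-23b-3p(19A->T) rises to 33.3% to 40.8% in derived cells, while miR-10a-5p(12T->A) stays at 99.2% or more up to blastocysts except in IVF morula replicate 1, at 89.85%.

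Among the listed forms, late adenines were most frequent in 2-cell embryos. All of these forms have reads in NT 2-cell replicate 4, and forms without reads there are not in the list. The shares are therefore a description and were not tested. Reads with A from base 20, as a share of these 50 forms and their exact sequences, made up 0.783%, 1.38% and 1.22% in oocytes. They made up 4.74%, 3.59%, 0.872% and 2.49% in IVF 2-cell embryos and 3.49%, 7.17%, 2.41% and 4.98% in NT 2-cell embryos. Thus 7 of 8 2-cell libraries lay above all oocyte libraries, and IVF replicate 3, the one with the most miRNA reads among the 2-cell libraries, lay within their range. In that library miR-21-5p, 1 of the cumulus and granulosa markers, held 31.3% of miRNA reads. It held 2.41% to 18.2% in the other 2-cell libraries and 4.85% to 11.2% in oocytes. None of the 50 forms is of miR-21-5p, so its own reads do not enter the late-adenine share. The part of cumulus or granulosa RNA in that share was not tested. IVF 8-cell embryos had 0.482% to 1.31%, NT 8-cell embryos 1.04% to 2.48%, blastocysts 0.339% to 1.16%, derived cells 0.468% to 0.653% and fibroblasts 0.0999% to 0.356%. IVF and NT ranges overlapped at both the 2-cell and the 8-cell stage.

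miR-138, abundant in oocytes here, carried 42.9% of the late-adenine reads of 2-cell embryos in 4 forms. miR-138-1-5p(25C->A) took 11.7% to 12.35% of its pair in oocytes, 19.05% to 32.4% in IVF 2-cell embryos and 15.8% to 44.1% in NT 2-cell embryos. miR-138-2-5p(25C->A) had 2, 10 and 10 reads in oocytes (1.57%, 4.65% and 4.93% of the pair). It had 20, 24, 6 and 18 reads in IVF 2-cell embryos (8.10%, 12.4%, 5.61% and 12.1%) and 21, 33, 33 and 63 in NT 2-cell embryos (12.6% to 27.5%). For both forms, no 2-cell library overlapped the oocytes. Without the miR-138 pairs, the late-adenine share was 0.354% to 0.532% in oocytes, 0.559% to 2.96% in IVF and 1.31% to 3.84% in NT 2-cell embryos. The order of the other groups changed: the oocyte mean lay above those of IVF 8-cell embryos, NT morulae, blastocysts and derived cells with these pairs, and below them without.

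How far the higher 2-cell share reached over single miRNAs was limited by depth. Every listed form has reads in NT 2-cell replicate 4, and 20 of the 50 forms were found in it and in no other 2-cell library, so pairs were compared without it. The list of forms still rests on that library. Of 34 pairs with at least 100 reads in both oocytes and the other 2-cell libraries, 11 had any late-adenine read in oocytes, and the pooled share was higher in 2-cell embryos for 10 of these and lower for 1. Another 15 had a read in 2-cell embryos and none in oocytes, where pair reads were fewer for all 15, and 8 had no read in either stage. Of 37 such pairs in blastocysts, 18 had a late-adenine read there, and the 2-cell share was higher for 13 and lower for 5. Examples over the other 7 2-cell libraries are miR-26a-1-5p(23G->A), with 65 of 1205 pair reads (5.39%, 95% Wilson interval 4.25% to 6.82%), and miR-20a-5p(24T->A), with 34 of 1219 (2.79%, 2.00% to 3.87%). In oocytes these had 10 of 400 reads (2.50%, 1.36% to 4.54%) and 0 of 365. Both examples were chosen after their values were seen.

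**Figure D4:**
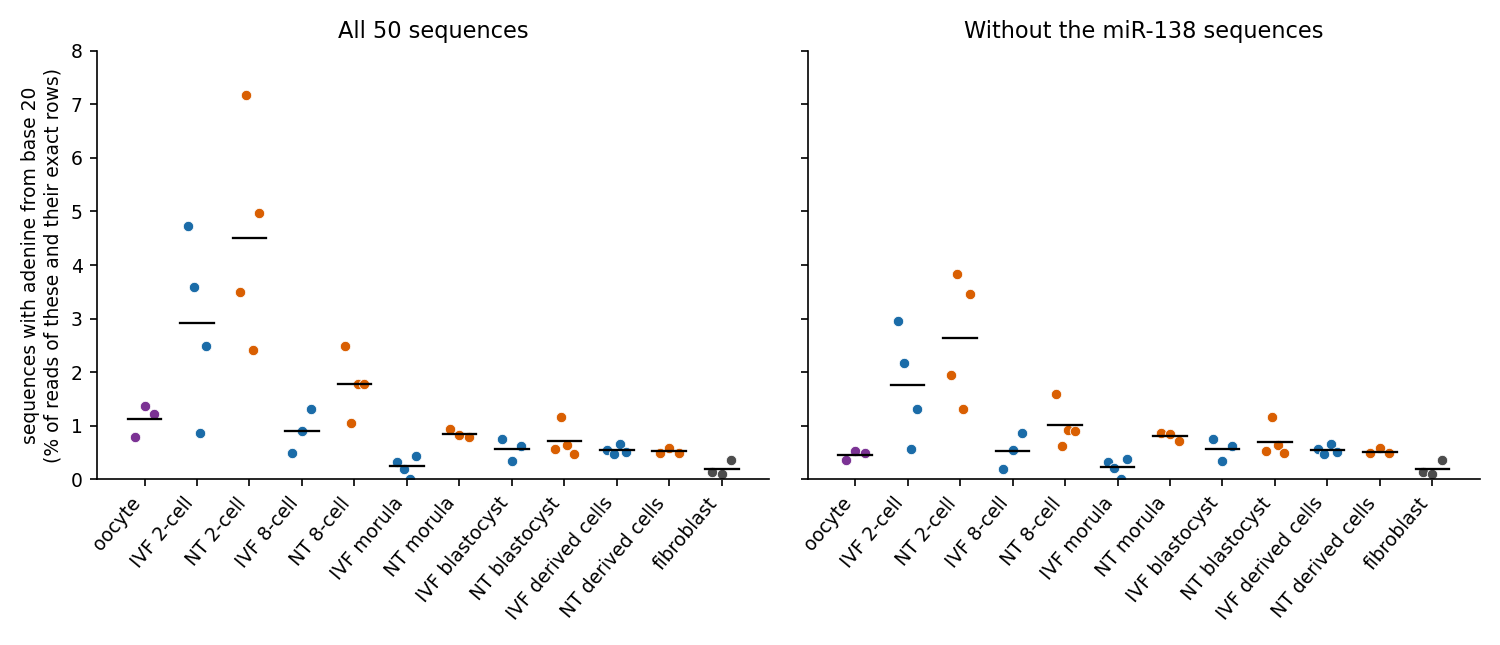
Reads with adenine from base 20 on as a percentage of the reads of these forms and their exact sequences (vertical axis) in each library (points), with group means (black lines), for all 50 forms (left) and without the miR-138 forms (right). In both panels 2-cell embryos reach the highest values, 7.17% on the left and 3.84% on the right. All forms shown have reads in NT 2-cell replicate 4, on which the list depends.

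Forms with T (uridine in RNA) from base 20 had overlapping shares in oocytes and 2-cell embryos. For the 10 forms without a recorded sister's base, their share of pair reads was 2.74% to 3.72% in oocytes, 2.16% to 4.73% in IVF and 1.44% to 4.43% in NT 2-cell embryos. In blastocysts it was lower, at 0.218% to 0.868%. The form miR-18a-5p(20A->T), 1 of these 10, had 68 reads in blastocysts and took a far larger share of its pair in oocytes, as given above. Its part in the shares of either stage was not tested. A sister's base that no name records can be among these 10, and 3′ ends were not located. The shares are therefore no measure of added uridines. Uridylation is best known for let-7 precursors. None of the 7 forms of miRNAs whose precursors are known for a 1-base 3′ overhang, and for mono-uridylation, had T from base 20, while 3 of the 7 had A there. Names give T as the annotated base 23 of let-7a-2-5p and let-7b-5p, where T reads as an exact match. This count therefore cannot show whether uridines were added.

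A to G changes outside the recorded sister bases and the late bases numbered 33 and held 0.205% to 2.27% of miRNA reads. They include let-7a-2-5p(19A->G), although names give G as base 19 of let-7c-5p. Some of the 33 can therefore carry a sister's base. The miR-1260b-5p forms given above, which exceeded their exact sequence in every library, are also among the 33. The more abundant of them had 14749 reads in derived cells alone, of 48422 reads of all 33 over all libraries. The share of this class is therefore no measure of editing. In the list of miRNAs with known editing sites, 2 of 6 forms were A to G. miR-376c-3p(6A->G), at the known editing site in the seed of this imprinted-cluster miRNA, varied widely. Fibroblasts had 18, 58 and 270 reads of it against 0, 17 and 519 exact reads. IVF derived cells had 49, 295, 4 and 0 against 38, 172, 79 and 12, and NT derived cells had 0, 0 and 0 against 4, 5 and 4. Thus the changed form led in 2 fibroblast and 2 IVF derived-cell libraries and was not seen in NT derived cells. With 13 pair reads in all, 0 of them changed, NT derived cells allow a share of up to 23.1% by 3 reads of the total, and a lower share was not detectable there.

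In blastocysts miR-376c-3p(6A->G) was a minor form although its exact sequence was abundant. IVF blastocysts had 4, 6 and 9 reads against 47, 32 and 95, or 7.84%, 15.8% and 8.65% of the pair. NT blastocysts had 4, 10, 10 and 5 reads against 158, 198, 235 and 300, or 2.47%, 4.81%, 4.08% and 1.64%. Every IVF value lay above every NT value, which was noticed in the data and not tested. From 2-cell embryos to morulae the changed form had at most 22 reads per library, and its share ran from 0% to 100%. The other A to G form of the list, miR-497-5p(2A->G), had 48 reads in all against 3954 exact reads. The other 4 listed forms were miR-27a-3p(19C->T), miR-27a-3p(21C->A), miR-27a-3p(22C->G) and miR-376a-3p(2T->A), none of them a change that editing of adenosine gives.

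**Figure D5:**
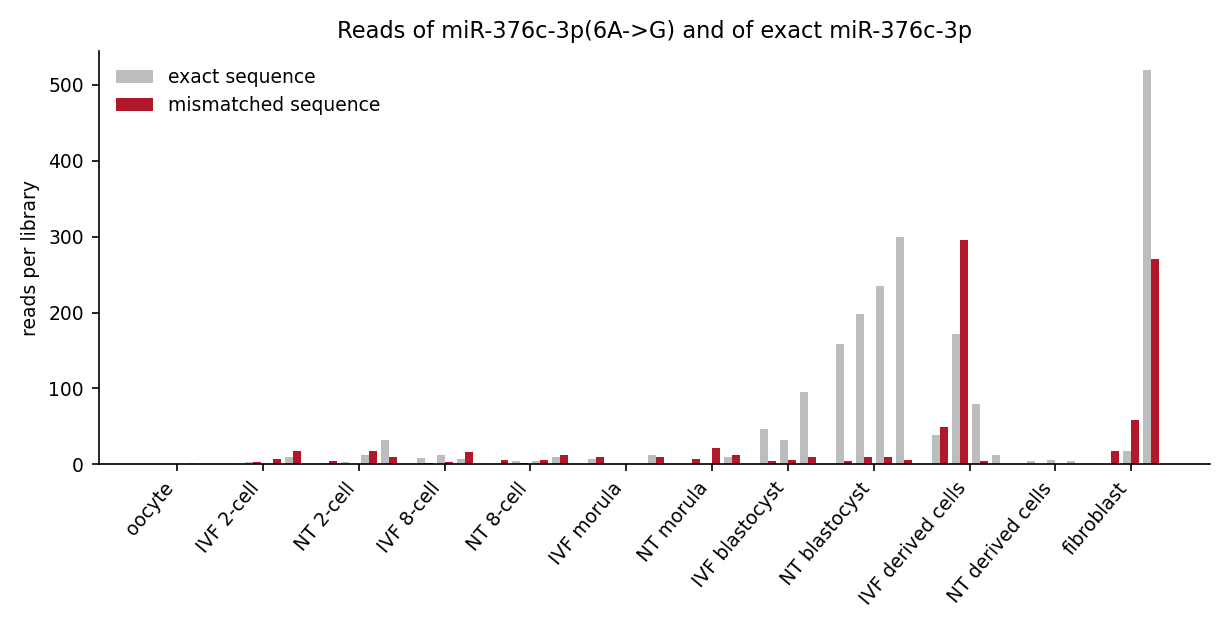
Reads per library (vertical axis) of exact miR-376c-3p (grey) and of miR-376c-3p(6A->G) (red), libraries ordered by group. The changed form has 270 reads in 1 fibroblast library and 295 in 1 IVF derived-cell library, at most 10 in blastocysts, and none in NT derived cells.

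Levels of the members were compared on the deposited log2 scale with limma, fitted over all 12039 sequences that passed a filter on low values. Of the 240 members, 209 passed it. From blastocysts to derived cells, 51 members rose and 5 fell, which is 26.8% of 209. Over all sequences 8.58% were called, and over exact miRNAs 40.2%. By direction, the background was 1.71% higher and 6.87% lower. The median member difference was 0.38 log2 units, and 0.00 over all sequences. By kind, sister-base forms made up 14 of the rises among 23 tested, and late adenines 12 among 42. The split depended on scaling: 108 rose and 8 fell after quantile normalisation, and 61 rose and 64 fell when recovered reads were fitted with voom.

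The leading rises included let-7 and miR-199 forms, of families abundant in differentiated cells. let-7a-2-5p(19A->G) had 0 to 3 reads per library in blastocysts and 114 to 2514 in derived cells (5.52 log2 units higher, SE 0.68, limma adjusted p = 2.4e-09). miR-23b-3p(19A->T) rose by 5.42 units (SE 0.67, adjusted p = 1.9e-09). miR-199c-3p(20C->T), of a mesenchymal family and with the base of miR-199a-2-3p and miR-199b-3p, rose by 5.39 units (SE 0.57, adjusted p = 1.6e-11), from 0 to 5 reads per library to 147 to 1638. miR-148b-3p(10C->G) rose by 5.35 units (SE 0.56, adjusted p = 1.8e-11). Of 41 called members with an exact sequence tested, 31 had an exact sequence called the same way. The largest falls were miR-3432b-5p(2T->G), from 85 to 545 reads per library down to 0 to 314 (fell by 4.58 units, SE 0.62, adjusted p = 3.5e-08), and miR-1246-5p(21A->G) (fell by 2.00 units, SE 0.55, adjusted p = 0.0087), the latter lost after quantile normalisation or without IVF blastocyst replicate 2. miR-17-5p(1C->A) fell by 1.93 units (SE 0.56, adjusted p = 0.014) and miR-18a-5p(20A->T) by 1.65 (SE 0.54, adjusted p = 0.036), while their exact sequences differed by 1.27 and 2.15 units in the other direction without passing the test. The call of miR-18a-5p(20A->T) was lost when any 1 of 11 libraries was left out.

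From oocytes to blastocysts, 19 members rose and 31 fell, or 23.9% of 209, against 42.3% of all sequences (2.06% higher and 40.2% lower) and 27.3% of exact miRNAs. Derived cells and blastocysts, and blastocysts and oocytes, share the blastocyst libraries, and both comparisons with oocytes share the oocyte libraries. The median difference was -0.86 over all sequences and 0.00 over the members. Here too the split depended on scaling, with 127 higher and 4 lower after median centring and 7 higher and 135 lower with voom. Without oocyte replicate 1, 9 rose and 23 fell. The leading rises were 2 forms of the miR-378 family. miR-378b-3p(4T->G) had no read in oocytes and 72 to 268 per blastocyst library, and its fitted difference of 5.43 (SE 0.74, adjusted p = 8.6e-09) is no bound. miR-378d-3p(1T->A) had 0, 3 and 3 reads in oocytes and 181 to 1022 in blastocysts, and rose by 5.31 units (SE 0.79, adjusted p = 6.5e-08). miR-215-5p(19A->C) rose by 3.42 units (SE 0.75) and miR-7-3-3p(25C->A), a late adenine, by 3.04 (SE 0.58).

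The leading falls were forms with reads in every oocyte library. miR-12058-5p(11T->A) had 9, 14 and 27 reads in oocytes (lowest, median and highest) and none in blastocysts, and fell by 4.81 units (SE 0.63, adjusted p = 2.4e-09). miR-138-1-5p(25C->A) fell by 4.21 (SE 0.63) and miR-138-2-5p(25C->A) by 3.62 (SE 0.62), with no read of either in blastocysts, and their exact sequences fell with them. miR-17-5p(1C->A) fell by 3.81 units (SE 0.72, adjusted p = 7.8e-06), while exact miR-17-5p differed by only -0.19. Quantile normalisation ended this call, and library weights ended that of miR-215-5p(19A->C). Of 30 called members with a tested exact sequence, 9 had it called the same way.

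Fibroblasts differed from oocytes in 8 higher and 27 lower members, or 16.7%, against 41.8% of all sequences (1.36% higher and 40.4% lower) and 32.2% of exact miRNAs. The median difference over all sequences was -0.97. After quantile normalisation 72 were higher and 13 lower, and with voom 5 and 140. miR-378b-3p(4T->G) and miR-378d-3p(1T->A) were 4.42 (SE 0.88) and 4.33 (SE 0.94) units higher in fibroblasts, and miR-376c-3p(6A->G) was 2.94 units higher (SE 0.85, adjusted p = 0.0031), a call lost with library weights. miR-2340-3p(14T->A) was 3.31 units higher (SE 0.97), a call lost without fibroblast replicate 1 or oocyte replicate 3. miR-10a-5p(12T->A) was 7.99 units lower (difference -7.99, SE 1.44), with 0, 647 and 35 reads in fibroblasts, and miR-10a-5p(11T->A), miR-17-5p(1C->A) and miR-34b-5p(11A->G) were lower too (differences -5.66, -5.92 and -5.29). With library weights the calls of both miR-10a-5p forms, miR-34b-5p(11A->G), miR-378b-3p(4T->G) and miR-2340-3p(14T->A) were lost as well, and quantile normalisation also ended that of miR-34b-5p(11A->G).

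Derived cells exceeded fibroblasts in 14 members and were lower in none, or 6.7% against 0.797% of all sequences (0.723% higher and 0.0748% lower) and 18.2% of exact miRNAs. The count was 4 without fibroblast replicate 1, 26 without IVF derived cells replicate 2 and 8 without IVF derived cells replicate 3. miR-34b-5p(11A->G) was 7.89 units higher (SE 1.03, adjusted p = 3.2e-07), with 0, 0 and 87 reads in fibroblasts and 86 to 37252 in derived cells. miR-34c-5p/miR-34b-5p(11A->G) was 5.38 units higher (SE 0.84). miR-200a-3p(17C->A), a form of an epithelial miRNA, had no read in fibroblasts, none in IVF derived cells replicate 2, and up to 4264 in the other derived-cell libraries (fitted difference 6.24, SE 0.95, no bound). miR-16a-5p(21T->C) was 5.30 units higher (SE 0.95), which lost its call without fibroblast replicate 1.

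Cloned and fertilised embryos differed in very few mismatched forms. At the 2-cell stage 1 member was higher and 1 lower in NT, or 0.957% of 209, against 2.28% of all sequences (2.16% higher and 0.125% lower). miR-17-5p(24T->A) had 0, 0, 4 and 0 reads in IVF and 4, 7, 0 and 13 in NT 2-cell embryos (2.17 log2 units higher, SE 0.63, limma adjusted p = 0.044). miR-17-5p(10T->C) had 7, 4, 6 and 11 reads in IVF and 0, 0, 2 and 11 in NT (2.37 units lower, difference -2.37, SE 0.69, adjusted p = 0.045). Both rest on few reads, their groups overlap, and the calls were lost under 5 and 6 of the alternatives, median centring and voom among them. With limma no member was called between NT and IVF 8-cell embryos, morulae, blastocysts or derived cells, where 0.00831%, 0%, 0.00831% and 0% of all sequences were called and 9, 10, 3 and 1 members had an unadjusted p under 0.05. With voom no member was called at any of the 5 stages. After median centring 21 members were called higher in NT morulae, where all sequences had a median difference of 1.502.

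The let-7 family had 13 mismatched forms with 125130 reads. Recorded sister bases accounted for 4 of them and late adenines for 3. A to G changes accounted for 4, of which let-7c-5p(17A->G) also counts as a sister base. let-7c-5p(17A->G) made up all pair reads in the 7 blastocyst libraries, and 68.3% to 99.5% in derived cells. let-7c-5p(19G->A), which also matches let-7f-2-5p with a mismatch and had 8346 reads, exceeded the exact form in 33 libraries. Forms that match 3 let-7 members with 1 mismatch each, such as let-7e-5p(9G->T)/let-7c-5p(19G->A)/let-7f-1-5p(12A->G) with 24077 reads, had no listed exact let-7e-5p to be compared with, and carried the base of let-7a.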

How the data were processed

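Small RNAs under 200 nucleotides were sequenced on an Ion Proton, per the labels' protocols. The deposited values are log2 values from the variance-stabilising transformation of DESeq2, made by the authors after trimming with Trim Galore, per the submitters' processing notes, which name the builds bosTau8 and UMD3.1; versions of these tools are not stated there. The transformation was inverted, and all 188126 values above the lowest (1.3675) came out as whole reads within 0.01 reads, on a scale where the smallest value in each library is 2 reads. Reads printed here rest on that scale.

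Members and lists were chosen with earlier results of these data known. The kinds of mismatch, the cut at base 20 and the rule for a sister's base were set after the names were seen. No sequence was used, so 3′ ends could not be located. Read errors, genomic variants and RNA changes cannot be told apart from the names.

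Levels were compared with limma 3.58.1 (R 4.3.3) on the log2 values of all 42 libraries in 12 groups, without covariates, with an intensity trend, for sequences that exceeded the lowest value by 1 unit or more in 3 libraries or more, and with p-values adjusted by Benjamini-Hochberg over all 12039. Pair shares (mismatched reads over mismatched and exact reads, using the exact sequence with the most reads) were compared with a two-sided exact permutation test for pairs with at least 20 reads in each of 14 libraries, adjusted over 109 pairs. Named members were the 10 with the highest mean value, the 10 pairs with the most reads, the 10 highest above their exact sequence in at least 21 libraries, the 4 largest called changes in each direction of each comparison, the 5 strongest pairs in each direction and the 5 highest of each of 2 lists, 52 in all. Other pairs that passed the depth limit, and members named beside these, were picked with their values in view. Wilson intervals are at 95%, and intervals and limits from 3 reads cover counting error only. The fit and the pair test were tested on simulated data. Alternatives were filters, scalings, weights, the replicate number as a block, other read minimums and leaving out each library.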

Additional observations from a re-analysis of the deposited data

Results flagged for a closer look

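In 24 tests, each of 1 measure in 1 group of 4 to 10 libraries, 1 library stood apart from its group. Several measures were tested in the same groups, so the tests are not independent. In IVF 2-cell replicate 1, forms with T from base 20 made up 4.728% of the reads of these pairs, and the other 3 IVF 2-cell libraries had 2.16% to 2.44%. Chance alone sets a library apart in about 1 in 20 such tests.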

How the results depend on the processing

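Counts of called members moved with the scaling. NT against IVF 2-cell embryos gave 0 calls with the stricter filter, median centring, quantile normalisation, only the groups compared, library weights and voom, against 2. Morulae gave 21 with median centring, blastocysts 4 with weights, and derived cells 1 with quantile normalisation and 11 with weights, each against 0. Blastocysts against oocytes gave 131 with median centring, 18 with weights and 142 with voom, against 50. Derived cells against blastocysts gave 116 with quantile normalisation, 94 with only those groups, 118 with weights and 125 with voom, against 56, and 31 rose and 9 fell after median centring. Fibroblasts against oocytes gave 85 with quantile normalisation, 20 with weights and 145 with voom, against 35, and 17 were higher and 9 lower after median centring. Derived cells against fibroblasts gave 9, 37, 102 and 37 with median centring, quantile normalisation, weights and voom, against 14. Voom moved the median of all sequences to -3.44 (blastocysts against oocytes), -1.69 and -5.03 (fibroblasts against oocytes), and median centring moved the first to 0.90. The cause was not tested. No named member changed sign in these fits.

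The pair test gave 39 with log2 differences in place of shares and 13 with the depth limit, which was added after seeing the data, against 23. With log2 differences 9 pairs reversed, since a form at 0 reads sits at the lowest value and the difference then follows the exact sequence: miR-19b-2-3p(20C->T) 0.57, miR-21-5p(17T->C) 2.86, miR-21-5p(6T->C) 2.68, miR-23b-3p(20A->T) 0.44, miR-24-1-3p(23G->T) 2.65, miR-27a-3p(21C->A) 0.89, miR-27b-3p(23C->A) 0.50, miR-31-5p(22G->A) 3.97 and miR-31-5p(24T->A) 3.15. Summed as antilogs of the deposited values instead of reads, the mismatched share was 14.8% (NT morulae), 13.6% (IVF blastocysts), 13.3% (NT blastocysts) and 8.59% (NT derived cells). Without the most abundant sequence it was 15.6% in oocytes, 12.1% in IVF 8-cell embryos, 10.5% in NT morulae, 9.79% and 9.24% in IVF and NT blastocysts, and 7.44% and 6.68% in IVF and NT derived cells.

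Leaving out each library gave 0 to 10 calls between NT and IVF 2-cell embryos (10 without NT replicate 3, 4 without NT replicate 1, 0 without NT replicate 2, and 1 without NT replicate 4 or IVF replicate 1, 2 or 4), 0 to 2 for morulae (1 without IVF replicate 2, 2 without IVF replicate 4), and 0 at the other stages. The range was 32 to 48 for blastocysts against oocytes, 51 to 61 for derived cells against blastocysts, 27 to 34 for fibroblasts against oocytes, 4 to 26 for derived cells against fibroblasts, and 21 to 32 for the pair test. With the replicate number as a block the counts were 3, 0, 0, 0 and 0 for NT against IVF by stage, and 46, 56, 35 and 15. Correlations of same-numbered libraries ran from -0.087 to 0.466, and at no stage was every pair over 0.1. The numbers were therefore not used to pair libraries, and whether some libraries share a collection is not known. Members under 100 reads, 120 of 240, limit what can be seen per library.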
